A study of Mus musculus with 48 samples.

Results

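Astrocytes of the hippocampus were compared with astrocytes of the cortex at postnatal day 7 (P7) in 6 bulk RNA-seq libraries, 3 from each region, out of the 48 libraries of the series. The 6 were taken by their labelled region, cell type and age. The series follows mouse astrocytes from 3 brain regions (cortex, hippocampus and olfactory bulb) through the ages P1, P7 and P14, and adds P28 animals in which Gabbr1, a subunit of the metabotropic GABA receptor, was deleted or not. The labels of the 6 P7 libraries name no deletion, transgene, treatment, strain or sex. They also do not say whether the libraries of a group came from separate animals. P-values therefore measure the spread between these libraries, which may be technical. P1 libraries (3 from cortex and 3 from hippocampus) and P14 libraries (4 from cortex and 3 from hippocampus) served to ask whether the regional difference at P7 differed from that at the other ages.

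In the first postnatal weeks astrocytes of the forebrain still divide, grow fine processes around synapses and switch on the transporters and channels of the mature cell. Their gene expression carries the imprint of the region in which their radial glial ancestors arose. In the hippocampus that imprint is set up next to the cortical hem, a source of Wnt signals at the medial edge of the cortex, and the dentate gyrus keeps neural stem cells that share many genes with astrocytes.

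Levels are given as scaled reads, meaning reads of a gene after all libraries were brought to a common scale, without correction for gene length. They can be compared between libraries for a gene but not between genes. The P7 libraries held 4828515 to 7850503 reads in cortex and 4002881 to 5542610 in hippocampus. The 45S ribosomal RNA precursor Rn45s took 13.7% to 18.0% of reads in cortex and 24.4% to 28.9% in hippocampus, and was left out of the scaling and the tests. The groups did not overlap in this share (exact two-sided permutation p = 0.1, the smallest that 3 against 3 allow). The long nuclear RNA Malat1 was also higher in hippocampus, at 31257, 34304 and 35312 in cortex and 100034, 158532 and 73939 in hippocampus. Its difference was not called without cortex replicate 1 (adjusted p = 0.057), and its relation to the Rn45s share was not tested. Hippocampus replicate 2 held the Y-linked Ddx3y at 733 and Xist, the RNA of the inactive X, at 27.5, whereas the other 5 libraries held Xist at 5368 or more and Ddx3y at 0.969 or less. By these genes it was the only male library, so it did not come from the same animal as the rest of its group. The part of sex in calls that rest on this library was not tested. Log levels of libraries of the same region correlated across genes with Pearson's r of 0.933 to 0.977, and libraries of different regions with 0.922 to 0.947. Hippocampus replicate 3 stood apart: it correlated at 0.933 and 0.945 with hippocampus replicates 1 and 2, and at 0.942 and 0.943 with cortex replicates 1 and 3. Cortex replicate 2 correlated at 0.964 and 0.951 with its own group and, among libraries of hippocampus, most with replicate 1 (0.947). All 24 astrocyte markers on the list used were detected, among them the glutamate transporter genes Slc1a2, at 103502, 145483 and 123278 in cortex and 107828, 87574 and 137572 in hippocampus, and Slc1a3, at 24755, 28160.1 and 26006 in cortex and 23286, 21557 and 26908 in hippocampus.

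Of 12988 genes tested, 994 (7.65%) differed between the regions at an adjusted p under 0.05, of which 481 (3.70% of those tested) were higher in hippocampus and 513 (3.95%) higher in cortex (limma on log2(scaled reads + 1), Benjamini-Hochberg). A gene that passed this test is said here to be called. Among the called genes 342 differed by at least 2-fold, 211 higher in hippocampus and 131 higher in cortex. With TMM scaling the split was 390 higher in hippocampus and 689 higher in cortex. With the deposited values as they stand, which were scaled separately for each region, it was 305 and 1576, on a median difference of -0.18 over all genes against 0.0082 in the main test. The number of called genes rested on single libraries: it was 120 without cortex replicate 1 and 120 without hippocampus replicate 2, 270 without hippocampus replicate 1, 529 without cortex replicate 3, 597 without cortex replicate 2, and 1798 without hippocampus replicate 3. Without cortex replicate 2 and hippocampus replicate 3 together it was 2494. With limma run without its mean-variance trend it was 110. The counts of called list members given below for these runs stand against these totals. Of the 153 called genes that belong to the gene lists or were named by size, 41 kept their call without each library in turn. None changed sign, but a constant sign was likely for genes chosen by their call in these same libraries.

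**Figure D1:**
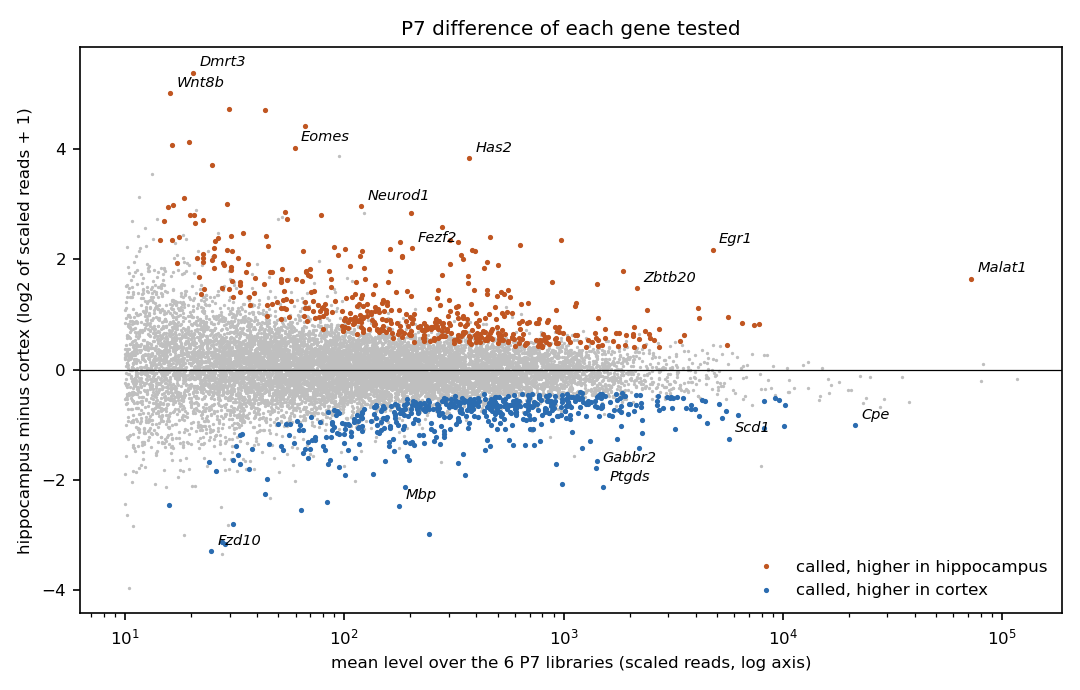
Difference between hippocampus and cortex at P7 (vertical, log2 of scaled reads + 1) against the mean level over the 6 libraries (horizontal, log axis) for each gene tested, with 481 called genes higher in hippocampus and 513 higher in cortex in colour. Has2 (3.84) has the largest positive difference among called genes with a mean of at least 116, and Mbp (-2.46) and Gabbr2 (-1.78) lie among those far below 0.

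Hippocampal libraries were marked by transcription factors of the medial cortex and dentate gyrus. Of 48 tested factors of forebrain patterning, 10 were called higher in hippocampus, where 3.70% of all genes tested were, and 6 higher in cortex, where 3.95% were. In bulk libraries more cells of a type and more RNA per cell cannot be told apart, here and in the results that follow. Zbtb20, a repressor needed for hippocampal identity, was at 3433, 3216 and 2879.6 in hippocampus and 1083, 1335 and 1027 in cortex. The groups were far apart, with a log2 difference of 1.47 ± 0.13 (standard error; adjusted p = 0.00175). Prox1, the factor that specifies dentate granule neurons, was at 563, 663 and 428 in hippocampus and 174, 96.8 and 122 in cortex (2.09 ± 0.23, adjusted p = 0.00317). Dmrt3, a factor of the medial cortical wall, had no read in any cortex library and 43.2, 43.1 and 36.5 scaled reads in hippocampus, at least 13.4-fold higher against a floor of 3 reads in each cortex library. Lhx9, a LIM homeobox factor, was nearly absent from cortex, at 65.4, 112 and 71.1 in hippocampus and 1.94, 0 and 9.14 in cortex. Dmrt3 and Lhx9 passed the filter of a mean of at least 10 through hippocampus alone, so they could be called only as higher there.

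The other factors called higher in hippocampus were Zic2 (1.23 on the log2 scale), Zic5 (1.37), Hopx (1.42), Nfib (0.85), Tcf4 (0.84) and Id4 (0.73). Nfib, which drives gliogenesis, was abundant in both regions at 8874, 8466 and 7684 in hippocampus and 4547, 5108 and 4231 in cortex. Higher in cortex were the homeobox genes Meis1 (-1.64) and Meis2 (-0.73), with Dmrta1 (-1.44), the LIM-only factor Lmo4 (-1.35), Satb1 (-0.67) and Etv1 (-0.73). Meis1 separated the regions cleanly, at 131, 125 and 136 in cortex and 43.2, 41.9 and 38.3 in hippocampus. Among well-known factors of the dorsal forebrain that did not pass the test, Lhx2 differed by 0.54 ± 0.17 (adjusted p = 0.0799) and Emx2 by 0.35 ± 0.16 (adjusted p = 0.184). Leaving out each library in turn, 6 to 11 factors were called higher in hippocampus and 2 to 6 higher in cortex. The lowest of these counts came without hippocampus replicate 2 (6 and 2) and without cortex replicate 1 (7 and 2), and Zbtb20, Prox1, Dmrt3, Zic2, Nfib, Tcf4, Meis1 and Lmo4 kept their call without each library.

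In the main test a list of dentate and neural stem cell genes had 14 of 32 tested members called higher in hippocampus and 0 higher in cortex. Of all genes tested, 3.70% and 3.95% were called so. The median difference was 0.68 against 0.0082 over all genes tested. The summed level overlapped between groups (45723 to 59628 in cortex and 47658 to 57837 in hippocampus). The list runs from stem cells to young granule neurons. Among stem cell genes, Hopx was at 542, 763 and 982 in hippocampus and 308, 306 and 225 in cortex and Thrsp at 292, 312 and 282 in hippocampus and 73.7, 75.6 and 61.7 in cortex. The intermediate progenitor factors followed the same order, with Eomes (also called Tbr2) at 113, 183 and 40.1 in hippocampus and 2.91, 14.6 and 2.28 in cortex and Neurog2 at 19.9, 53.8 and 20 in hippocampus and 0, 3.98 and 0 in cortex. In Neurog2 every cortex library held 3 reads or fewer, which puts hippocampus at least 10.2-fold higher. Neurog2 passed the filter of a mean of at least 10 through hippocampus alone, so it could be called only as higher there. Neurod1, expressed as granule neurons are born, was at 216, 277 and 139 in hippocampus and 24.2, 14.6 and 44.2 in cortex (2.96 ± 0.39, adjusted p = 0.00597), and Calb2, which marks immature granule neurons, at 39.7, 41.9 and 38.3 in hippocampus and 9.69, 5.3 and 15.2 in cortex. Nes, Hes5, Sox4, Tfap2c, Id4 and Tnc were also called higher in hippocampus. The count higher in hippocampus was 3 without hippocampus replicate 2, 4 without cortex replicate 1, 5 without hippocampus replicate 1, 9 without cortex replicate 3, 11 without cortex replicate 2 and 15 without hippocampus replicate 3. Neurod1, Prox1 and Thrsp kept their call without each library. With limma run without its mean-variance trend the count higher in hippocampus was 3, where 68 of all 12988 genes tested were called so. The totals over all genes, given above, also fell or rose in the runs that left out 1 library. The absence of calls higher in cortex did not hold throughout. By edgeR, with TMM scaling, with scaling of the P7 libraries alone or with a minimum mean of 100, 1 member was called so. The same held without cortex replicate 2, cortex replicate 3 or hippocampus replicate 3, and 3 were called by DESeq2, with array weights or with deposited values.

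Few proliferation genes were called, where 7.65% of all genes tested were called in either direction. Of 30 mitosis genes, 3 were called, all higher in hippocampus: the proliferation marker Mki67 at 2369.9, 2006 and 1327 in hippocampus and 916, 924 and 1065 in cortex, Kif23 (1.04) and Hmmr (0.96). No S-phase gene of 30 was called by limma, edgeR or DESeq2 (1 at an unadjusted p under 0.05), and 23 of these 30 had a positive difference, with a median of 0.23. Each of the 3 mitosis calls was lost without cortex replicate 1, with adjusted p of up to 0.112 for Mki67, and without hippocampus replicate 1 or 2. Genes of motile cilia, which mark ependymal cells, were also higher in hippocampus in 2 of 7 tested: Hydin at 169, 82.5 and 36.5 in hippocampus and 8.72, 17.2 and 6.85 in cortex and Spef2 at 94.7, 84.9 and 52.9 in hippocampus and 19.4, 15.9 and 40.4 in cortex. Of all genes tested, 3.70% were called higher in hippocampus. Hydin lost its call without cortex replicate 1 or 3 or hippocampus replicate 1 or 2. Spef2 lost it without cortex replicate 1 or 2 or hippocampus replicate 1 or 2. The summed level of the ependymal list did not overlap between groups (182 to 532 in hippocampus and 118 to 126 in cortex), as in 31.3% of single genes tested. The part of this list in the stem cell result was not tested.

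Genes of the Wnt pathway were called in both directions, where 3.70% of all genes tested were called higher in hippocampus and 3.95% higher in cortex. Wnt ligands bind Frizzled receptors and raise beta-catenin, which switches on targets that include the pathway's own inhibitors. Among 10 ligands tested, 2 were called, both higher in hippocampus: Wnt8b, a ligand of the cortical hem, had no read in any cortex library and 42.1, 28.7 and 25.5 scaled reads in hippocampus (at least 10.5-fold higher against 3 reads per cortex library), and Wnt5a was at 201, 232 and 231 in hippocampus and 144, 151 and 117 in cortex. Of 42 receptors and transducers, 3 were higher in hippocampus (Fzd1, Fzd9 and the polarity cadherin Celsr1, with log2 differences of 0.88, 1.11 and 0.89) and 4 higher in cortex. Fzd10 was nearly absent from hippocampus, at 38.8, 42.4 and 54.8 in cortex and 3.51, 7.18 and 1.82 in hippocampus. Wnt8b passed the filter of a mean of at least 10 through hippocampus alone, and Fzd10 through cortex alone. Each could therefore be called only in that direction. Lgr6, a receptor for R-spondins, was at 178, 164 and 131 in cortex and 63.1, 29.9 and 36.5 in hippocampus, and Fzd2 (-0.92) and the kinase gene Gsk3a (-0.86) were also called higher in cortex.

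Of 21 Wnt targets and inhibitors, 5 were called higher in hippocampus and 1 higher in cortex, against 3.70% and 3.95% of all genes tested. The feedback targets Axin2 (212, 256 and 195 in hippocampus and 142, 146 and 148 in cortex) and Rnf43 (37.4, 64.6 and 41.9 in hippocampus and 4.85, 14.6 and 12.2 in cortex) were higher in hippocampus, as were the secreted inhibitors Frzb (58.4, 102 and 63.8 in hippocampus and 14.5, 9.28 and 15.2 in cortex), Sfrp4 (1.96 on the log2 scale) and Draxin (746, 621 and 313 in hippocampus and 134, 202 and 82.2 in cortex). Sfrp1, a further secreted inhibitor, was higher in cortex, at 1241, 1533 and 754 in cortex and 592, 609 and 592 in hippocampus. Axin2 lay just inside the threshold (adjusted p = 0.0488) and reached 0.192 when a library was left out. Axin2 and Wnt5a lost their call without any 1 of 5 libraries, all but hippocampus replicate 3, Fzd2 without any 1 of the 6, and Wnt8b without hippocampus replicate 1 or 2. Over the runs that left out 1 library, Frzb kept its call except without hippocampus replicate 2, and Fzd10 and Lgr6 except without cortex replicate 1.

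Genes of the extracellular matrix were called in 6 of 39 tested members, 5 of them higher in hippocampus. Of all genes tested, 7.65% were called, 3.70% higher in hippocampus. Has2, which makes hyaluronan, the polysaccharide backbone of the brain's matrix, had the largest difference among called genes with a mean level of at least 116, the median of the genes tested. Its level was 404, 777 and 906 in hippocampus and 41.7, 39.8 and 54.8 in cortex, a log2 difference of 3.84 ± 0.28 (adjusted p = 0.00157), and no cortex library came near any hippocampus library. The hyaluronan-binding proteoglycan genes Vcan (7358, 8253 and 6749 in hippocampus and 3709, 3762 and 4058 in cortex) and Acan (35.1, 45.5 and 52.9 in hippocampus and 14.5, 15.9 and 15.2 in cortex) were higher as well. Tnc, the matrix glycoprotein of germinal zones, was at 6864, 11480.1 and 10122 in hippocampus and 5902, 5238 and 4731 in cortex, with hippocampus replicate 1 close to the cortex libraries. Lama2 differed by 0.77, and Spon1 was higher in cortex (-0.90). Has2, Vcan and Spon1 kept their call without each library. In the limma fit of all 19 libraries the P7 difference of Has2 did not pass (adjusted p = 0.0858). The number called higher in hippocampus was 2 without cortex replicate 1, 3 without cortex replicate 2, cortex replicate 3 or hippocampus replicate 2, 4 without hippocampus replicate 1 and 5 without hippocampus replicate 3.

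Guidance and synapse factors were called in both directions, where 3.70% of all genes tested were called higher in hippocampus and 3.95% higher in cortex. Of 46 semaphorins, plexins, netrins, slits and their receptors, 3 were higher in hippocampus and 6 higher in cortex. Slit2, a repellent for axons, was at 893, 594 and 642 in hippocampus and 197, 143 and 207 in cortex (1.95 ± 0.20, adjusted p = 0.00237), whereas its receptors Robo1 (972, 851 and 816 in cortex and 399.7, 457 and 556 in hippocampus) and Robo2 (1328, 1083 and 1238 in cortex and 656, 658 and 707 in hippocampus) and its relative Slit1 (-1.21 on the log2 scale) were higher in cortex. Sema3c and the semaphorin receptor Nrp2 were higher in hippocampus, by 1.43 and 1.44, and Sema3a, Sema4a and Ntn4 higher in cortex, by -1.16, -0.79 and -0.95. Among 38 secreted factors that act on synapses, Thbs1 and Thbs3, thrombospondins that promote synapse formation, were higher in hippocampus. Thbs1 was at 147, 207 and 102 in hippocampus and 30, 29.2 and 44.2 in cortex. Higher in cortex were Chrdl1, which matures synapses by way of AMPA receptors, at 1466, 1708 and 1356 in cortex and 761, 619.6 and 678 in hippocampus, the cytokine gene Il33 at 338, 366 and 282 in cortex and 174, 153 and 171 in hippocampus, Igfbp5 (-1.15) and Bmp7 (-1.48). Slit2, Robo2, Sema3c, Nrp2, Thbs1, Chrdl1 and Bmp7 kept their call without each library.

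**Figure D2:**
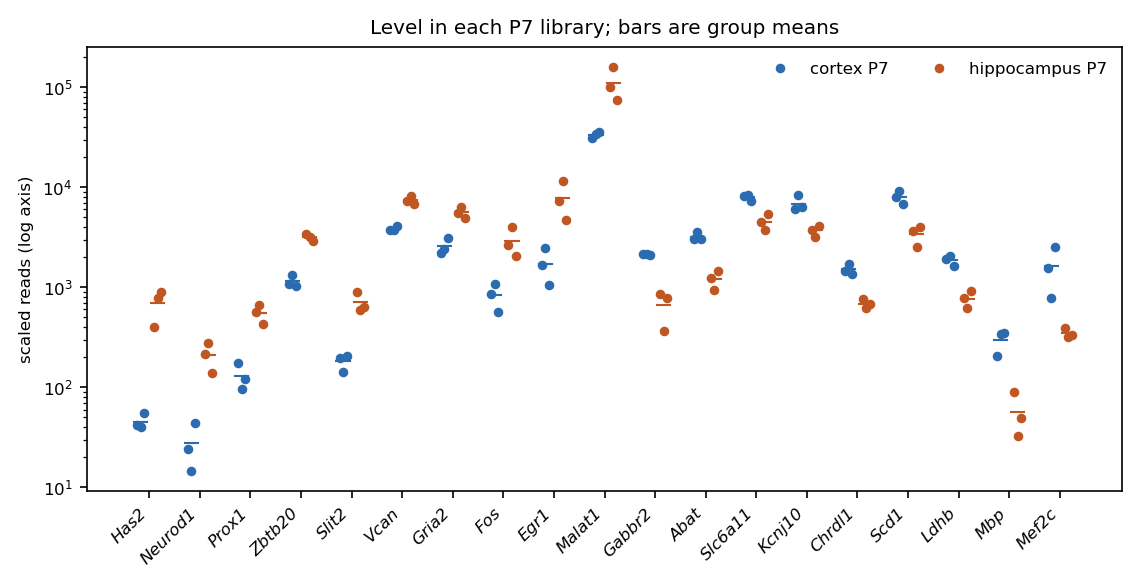
Scaled reads (vertical, log axis) of 19 genes in each of the 6 P7 libraries, cortex in blue and hippocampus in orange, with a bar at each group mean. The genes were picked from those called. The 3 libraries of a region lie apart from the 3 of the other for every gene shown, as in 31.3% of all genes tested. Among the cortex libraries, Mef2c is lowest in replicate 2 (778).

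Immediate-early genes were higher in hippocampus at P7. These genes are induced within minutes by neuronal activity, growth factors or the enzymatic dissociation of tissue, and the list used here holds those that dissociation is known to raise. Of 20 tested members, 13 were called higher in hippocampus and 0 higher in cortex, where 3.70% and 3.95% of all genes tested were. The median difference was 1.66. With limma run without its mean-variance trend, 3 members were called higher in hippocampus, where 68 of all 12988 genes tested were called so. Egr1, a zinc finger factor, was at 7314, 11511 and 4759 in hippocampus and 1658, 2457 and 1058 in cortex (2.18 ± 0.34, adjusted p = 0.0104). Fos, a subunit of the AP-1 factor, was at 2650.4, 4037 and 2059 in hippocampus and 851, 1074 and 571 in cortex, and its relative Fosb at 413, 758 and 332 in hippocampus and 94, 168 and 47.2 in cortex. Dusp1, a phosphatase that switches off MAP kinases, was at 857, 1433 and 853 in hippocampus and 231, 288 and 143 in cortex, and Klf4 at 383, 449 and 224 in hippocampus and 41.7, 76.9 and 31.2 in cortex. In each of these genes hippocampus replicate 2 was the highest library and cortex replicate 2 the highest of cortex. Jun, Junb, Ier2, Atf3, Btg2, Nr4a1, Zfp36 and Socs3 were the others called. Outside the list, Nr4a2 (598, 1165 and 599.6 in hippocampus and 144, 142 and 135 in cortex), Nr4a3 (348, 817 and 499 in hippocampus and 109, 96.8 and 107 in cortex) and the matrix protein gene Cyr61 (1532, 2149 and 1199 in hippocampus and 300.5, 458 and 218 in cortex) were among the 10 largest positive differences of called genes with a mean of at least 116. Tissue was dissociated before the libraries were made, per the labels, and the timing in each region is not given. The share of Rn45s and the level of Malat1, given above, were higher in hippocampus too. The part of dissociation or of RNA composition in this difference was not tested. Leaving out libraries in turn gave 3 called without cortex replicate 1, 5 without hippocampus replicate 2, 7 without hippocampus replicate 1, 9 without cortex replicate 3, 14 without cortex replicate 2 and 16 without hippocampus replicate 3, and 18 without both cortex replicate 2 and hippocampus replicate 3. Dusp1, Klf4, Jun, Nr4a2, Nr4a3 and Cyr61 kept their call without each library, and the largest adjusted p on leaving out 1 library was 0.0584 for Egr1 and 0.0504 for Fos.

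Several promoters of this list hold the letters of the cyclic AMP response element, to which the activity-regulated factor CREB is known to bind. The stretches below are from RefSeq promoter windows (250 bases before to 50 after each start, build GRCm38.p6) and are printed 5′ to 3′ on the strand of the gene, with matches to TGACGT or its full palindrome TGACGTCA, on either strand, in capitals. They are shown because they carry the shared letters of 3 genes that were called together. Fos lies at chr12:85473804-85473849 on the plus strand, Btg2 at chr1:134079294-134079341 and Dusp1 at chr17:26508588-26508683, both on the minus strand, all within the window upstream of the annotated start.
Fos: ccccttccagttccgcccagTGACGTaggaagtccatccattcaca
Btg2: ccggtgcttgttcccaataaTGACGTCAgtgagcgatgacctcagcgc
Dusp1: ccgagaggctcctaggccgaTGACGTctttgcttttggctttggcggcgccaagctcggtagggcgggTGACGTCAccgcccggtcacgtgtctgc

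TGACGT was in the window of 4 of the 11 called list members that have one (36.4%: Fos, Atf3, Btg2 and Dusp1), against 13.4% of the 9854 tested genes with a window. Among all called genes it was in 72 of 360 windows of genes higher in hippocampus and 35 (8.79%) of 398 windows of genes higher in cortex. The full palindrome, which contains TGACGT, was in 2 of the 11 (18.2%; Btg2 and Dusp1), 3.68% of tested genes, 5.83% of those higher in hippocampus and 3.02% of those higher in cortex. The CArG box, named for the letters that serum response factor prefers, was in 1 of the 11 (9.09%; Zfp36) and in 1.61% of tested genes. CTTTGAT, letters known for the Wnt effectors TCF and LEF, was in 0 of the 11 and in 3.0% of tested genes. These are letter matches that describe the windows, with motifs picked after the genes were known.

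The immediate-early difference changed with age. In the fit over the 19 libraries of all ages, its median was 0.42 at P1, 1.66 at P7 and -2.11 at P14. The change from P7 to P14 was called, and negative, in 13 of 20 members, 11 of which were called at P7, against 9.29% of 12880 genes called for that change. Egr1 fell from 2.18 to -1.72 (change -3.90 ± 0.57, adjusted p = 0.000411) and Dusp1 from 2.26 to -1.53 (change -3.79 ± 0.60, adjusted p = 0.000727). Fosb had no read in the 3 P14 hippocampus libraries and 31.3, 11.6, 165 and 7.68 in the 4 P14 cortex libraries, so the size of its change depends on the pseudocount. From P1 to P7 the change with the lowest adjusted p was that of Atf3 (3.66 ± 1.18, adjusted p = 0.081), which did not pass. In that same fit, where the 6 groups share 1 estimate of the spread, only 4 of the 20 members passed at P7.

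**Figure D3:**
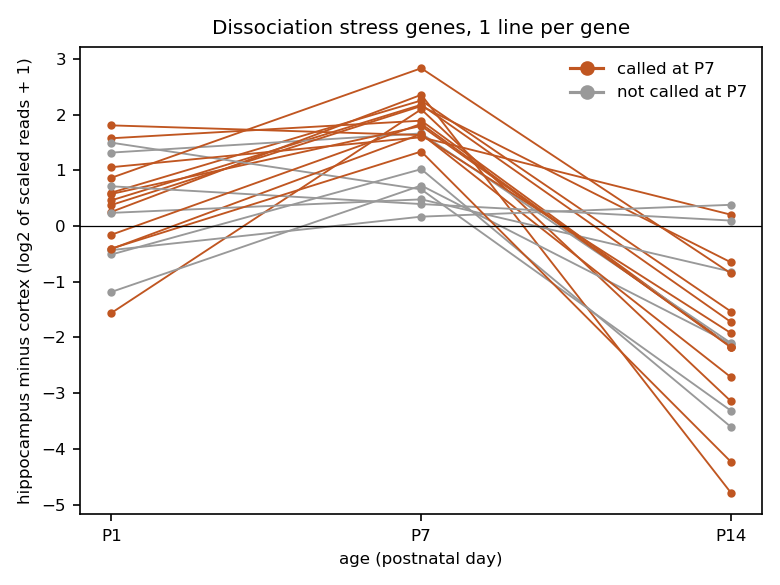
Difference between hippocampus and cortex (vertical, log2 of scaled reads + 1) at P1, P7 and P14 for the 20 tested dissociation stress genes, 1 line each, with those called at P7 in orange. The median is 0.42 at P1, 1.66 at P7 and -2.11 at P14.

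Markers of astrocytes themselves leaned to the cortex. Of 24 astrocyte markers, 7 were called higher in cortex and 1 higher in hippocampus, with a median of -0.27. Of all genes tested, 3.95% were called higher in cortex and 3.70% higher in hippocampus. Kcnj10, the potassium channel that sets the astrocyte membrane potential, was at 6003, 8275 and 6312 in cortex and 3747, 3207 and 4143 in hippocampus. Glul, the glutamine synthetase, was at 12316, 13563 and 11214 in cortex and 7729, 6815 and 9486 in hippocampus, and Aldh1l1, a folate enzyme used as a pan-astrocyte marker, at 1486, 1536 and 1365 in cortex and 824, 797 and 1163 in hippocampus. S100b (-0.79), Acsbg1 (-0.84), the connexin gene Gjb6 (-1.14) and the GABA transporter gene Slc6a11 (-0.83) were also higher in cortex. Sox9, a factor of the astrocyte lineage from its start, was the member higher in hippocampus, at 2431, 2545 and 2541 in hippocampus and 1646, 1843 and 1472 in cortex. Of the abundant markers that did not pass, Aqp4 differed by -0.28 ± 0.14 (adjusted p = 0.225), Slc1a2 by -0.17 ± 0.21 (0.639), Slc1a3 by -0.14 ± 0.13 (0.531) and Gfap by 0.65 ± 0.28 (0.176). The summed marker level overlapped between groups (cortex 260807 to 313907, hippocampus 205432 to 289990.0).

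Genes that rise as astrocytes mature gave the same picture, with 8 of 30 called higher in cortex (3.95% of all genes tested were), 0 higher in hippocampus and a median of -0.33. They share Kcnj10, Glul, Aldh1l1, Acsbg1, Gjb6 and Slc6a11 with the marker list and add Chrdl1 and the claudin gene Cldn10 (692, 727 and 624 in cortex and 376, 495 and 423 in hippocampus). Of 33 potassium, water and pump genes, 4 were higher in cortex and 0 higher in hippocampus: Kcnj10, Gjb6, the sodium pump subunit gene Atp1b3 (-0.53) and its regulator Fxyd1 (-1.46). These calls were fragile, as was the number called over all genes, given above for the same runs. The count of markers higher in cortex was 0 without hippocampus replicate 2, 1 without cortex replicate 1 or hippocampus replicate 1, 2 without cortex replicate 2, 3 without cortex replicate 3 and 10 without hippocampus replicate 3. It was 0 with limma run without its mean-variance trend, where 42 of all 12988 genes tested were called higher in cortex. Over the runs that left out 1 library, Kcnj10 lost its call only without hippocampus replicate 2 (adjusted p = 0.0727), and Chrdl1 kept it in each.

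Genes of GABA signalling, the subject of the series, were called more often higher in cortex than in hippocampus, though most were not called. GABA released by inhibitory neurons acts on astrocytes through the metabotropic GABA-B receptor, a pair of the subunits GABBR1 and GABBR2, and through GABA-A channels, and is cleared by transporters and broken down. Of 20 tested genes, 5 were called higher in cortex and 1 higher in hippocampus, where 3.95% and 3.70% of all genes tested were. The median was -0.45, and the summed level did not overlap between groups (30802 to 32127 in cortex and 17829 to 24637 in hippocampus). Gabbr2 was at 2164, 2162 and 2110.2 in cortex and 851, 365 and 778 in hippocampus, a log2 difference of -1.78 ± 0.27 (adjusted p = 0.00879). The cortex libraries were nearly alike and hippocampus replicate 2 was the lowest. Gabbr1, the ligand-binding subunit, was at 5078, 4638 and 4624 in cortex and 3042, 3106 and 4201 in hippocampus. The groups did not overlap, as in 31.3% of genes tested, but the difference of -0.49 ± 0.14 did not pass (adjusted p = 0.0641).

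Genes of GABA clearance and breakdown were among those called. Slc6a11, the main astrocytic GABA transporter (GAT-3), was at 8193, 8431 and 7245 in cortex and 4493, 3696 and 5391 in hippocampus. Abat, the transaminase that degrades GABA, was at 3023, 3581 and 3045 in cortex and 1248, 947 and 1462 in hippocampus (-1.42 ± 0.16, adjusted p = 0.00342). Among GABA-A subunits, Gabrg1, a subunit found in glia, was higher in cortex (1141, 1391 and 1239 in cortex and 791, 799 and 926 in hippocampus) and Gabrb1 higher in hippocampus (189, 286 and 232 in cortex and 438, 427 and 519 in hippocampus). Gabra2, Gabra3, Gabra4, Gabra5, Gabrb2 and Gabrg3 did not pass, with differences from -0.84 (Gabra3) to 0.55 (Gabra5). Kctd12, a partner of the GABA-B receptor, differed by 0.37 ± 0.15 (adjusted p = 0.144). Abat kept its call without each library. Over the runs that left out 1 library, Gabbr2 lost its call only without cortex replicate 1 (adjusted p = 0.0573). With limma run without its mean-variance trend Abat was the 1 member called higher in cortex, where 42 of all 12988 genes tested were. The count higher in cortex was 1 without cortex replicate 1, 2 without hippocampus replicate 1 or 2, 4 without cortex replicate 2 or 3, 7 without hippocampus replicate 3 and 12 without that library and cortex replicate 2.

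**Figure D4:**
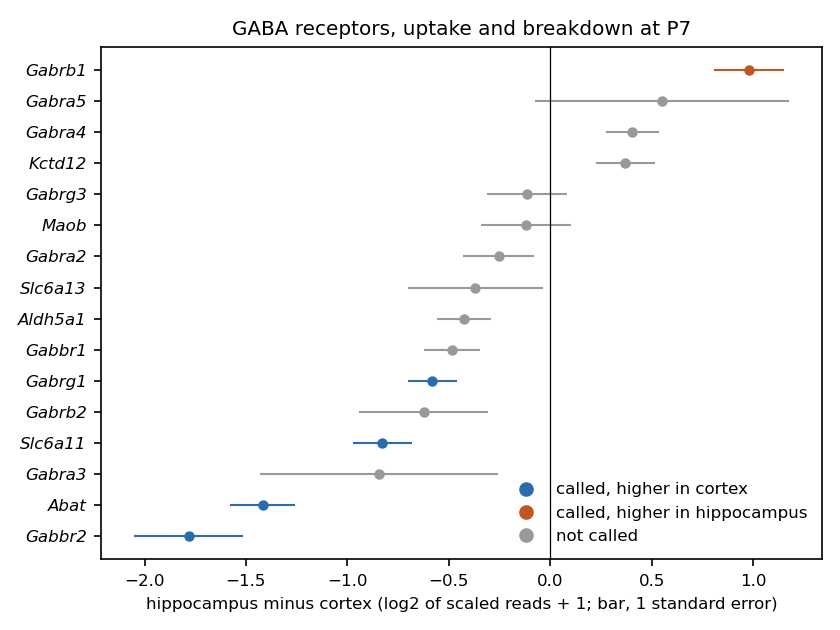
Difference between hippocampus and cortex at P7 (horizontal, log2 of scaled reads + 1, with a bar of 1 standard error) for 16 of the 20 tested genes of GABA receptors, uptake and breakdown. Those called higher in cortex run from Gabbr2 (-1.78) to Gabrg1 (-0.58), and Gabrb1 (0.98) was called higher in hippocampus.

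Glutamate genes were mixed, with 3 of 31 called higher in hippocampus and 4 higher in cortex, against 3.70% and 3.95% of all genes tested. Gria2, the AMPA receptor subunit that makes the channel impermeable to calcium, was at 5516, 6399 and 4904 in hippocampus and 2200.4, 2422 and 3127 in cortex, and the kainate receptor gene Grik2 (0.66) and the glutamine carrier gene Slc38a1 (1.32) were also higher in hippocampus. Grm5, the metabotropic receptor of young astrocytes, was at 3034, 3143 and 3393 in cortex and 2075, 1964 and 2418 in hippocampus, and Glul, Grik3 (adjusted p = 0.0404) and Slc38a3 (-0.45) were higher in cortex with it. Gria2 kept its call without each library.

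The called genes of lipid and sugar metabolism were all higher in cortex. Of 31 genes of cholesterol and fatty acid synthesis, 7 were called higher in cortex and 0 higher in hippocampus, where 3.95% and 3.70% of all genes tested were. The median was -0.43. The summed level did not overlap (76096 to 91091 in cortex, 50739 to 63247 in hippocampus), as in 31.3% of single genes tested. Scd1, which puts the double bond into fatty acids, was at 7992, 9184 and 6788 in cortex and 3662, 2542 and 3966 in hippocampus. Fasn, the fatty acid synthase, was at 2685, 2277 and 2358 in cortex and 1579, 1432 and 1753 in hippocampus, and the desaturase gene Fads1 (-0.84) and the elongase gene Elovl2 (-0.70) were called as well. The sterol enzymes Nsdhl (-0.80), Fdps (-0.67) and Dhcr7 (-0.50) completed the 7. Of 27 genes of glycolysis and lactate, 4 were higher in cortex and 0 in hippocampus. Ldhb, a lactate dehydrogenase subunit, was at 1924, 2045 and 1643 in cortex and 778, 617 and 917 in hippocampus, and its partner Ldha (-0.61), Pgk1 (-0.66) and Pgam1 (-0.51) differed less. Scd1 and Ldhb kept their call without each library. The lipid count was 1 without hippocampus replicate 2, 2 without cortex replicate 1 or hippocampus replicate 1, 5 and 6 without cortex replicates 2 and 3, and 10 without hippocampus replicate 3. It was 0 with limma run without its mean-variance trend, where 42 of all 12988 genes tested were called higher in cortex.

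Markers of other cells were measured in every library. Of all genes tested, 7.65% were called in either direction. Mature oligodendrocyte genes were higher in cortex in 4 of 7 tested members, with a median of -1.18 and a summed level of 1661 to 1996 in cortex against 643 to 760 in hippocampus. Mbp, a main protein of myelin, was at 206, 343 and 351 in cortex and 88.8, 32.3 and 49.2 in hippocampus. Cnp and Aspa followed (-1.08 and -1.18), and Mbp and Cnp kept their call without each library. Ptgds, a prostaglandin synthase of oligodendrocytes and meninges, was at 3111, 3294 and 1043 in cortex and 264, 551 and 862 in hippocampus. Of 11 tested markers of oligodendrocyte precursors, Vcan was higher in hippocampus and Bcas1 higher in cortex, and Pdgfra (-0.25 ± 0.22) and Olig2 (0.062 ± 0.23) did not pass. No marker was called by limma of 16 for microglia (0 at an unadjusted p under 0.05, and 0 by edgeR or DESeq2), where summed levels ran from 1564 to 4963 in cortex and 1042 to 4007 in hippocampus, of 8 tested for choroid plexus (886 to 5210.4 and 672 to 2619, with 2 at an unadjusted p under 0.05, 0 by edgeR and 1 by DESeq2), or of 1 tested for blood, 6 of whose 7 members had no read. Of 15 endothelial and mural markers, Rgs5 was higher in hippocampus (0.79). Of 14 meningeal markers, Cyp1b1 was higher in hippocampus (1.33) and Ogn higher in cortex (-1.76). The part of these cells in the regional differences was not tested.

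Among 25 neuron markers only Gad1, which makes GABA, was called, at 142, 86.2 and 123 in cortex and 42.1, 49 and 54.7 in hippocampus. The median of the list was -0.47, with 8 of 25 differences positive. Summed levels overlapped (8091 to 17080.3 in cortex and 8963 to 13556 in hippocampus). Genes of cortical projection neurons were higher in cortex in 5 of 30 tested and higher in hippocampus in 2, against 3.95% and 3.70% of all genes tested. Mef2c, a factor of excitatory neurons, was at 1575, 778 and 2533 in cortex and 394, 319 and 335 in hippocampus. Cortex replicate 2 was the lowest of its group in this gene, as it was for the summed level of the neuron markers. Foxp2 (-1.10), Sox5 (-0.45) and Etv1 (-0.73) were also higher in cortex. Fezf2, which specifies subcerebral projection neurons of cortex and is also a forebrain progenitor gene, was higher in hippocampus at 278, 419 and 308 in hippocampus and 75.6, 66.3 and 71.6 in cortex, as was Nr4a2, given above. Genes of hippocampal neurons were called in 4 of 21 tested, all higher in hippocampus: Prox1, Zbtb20 and Calb2, given above, and Glis3 (0.84). Pdyn, the opioid peptide precursor of granule neurons, was at 242, 294 and 363 in hippocampus and 52.3, 70.3 and 54.8 in cortex. Fezf2 and Pdyn kept their call without each library, and Mef2c lost its call without cortex replicate 1 or hippocampus replicate 2 (adjusted p of at most 0.0722). In the limma fit of all 19 libraries the P7 difference of Pdyn did not pass (adjusted p = 0.115), and that of Fezf2 did (0.0102).

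**Figure D5:**
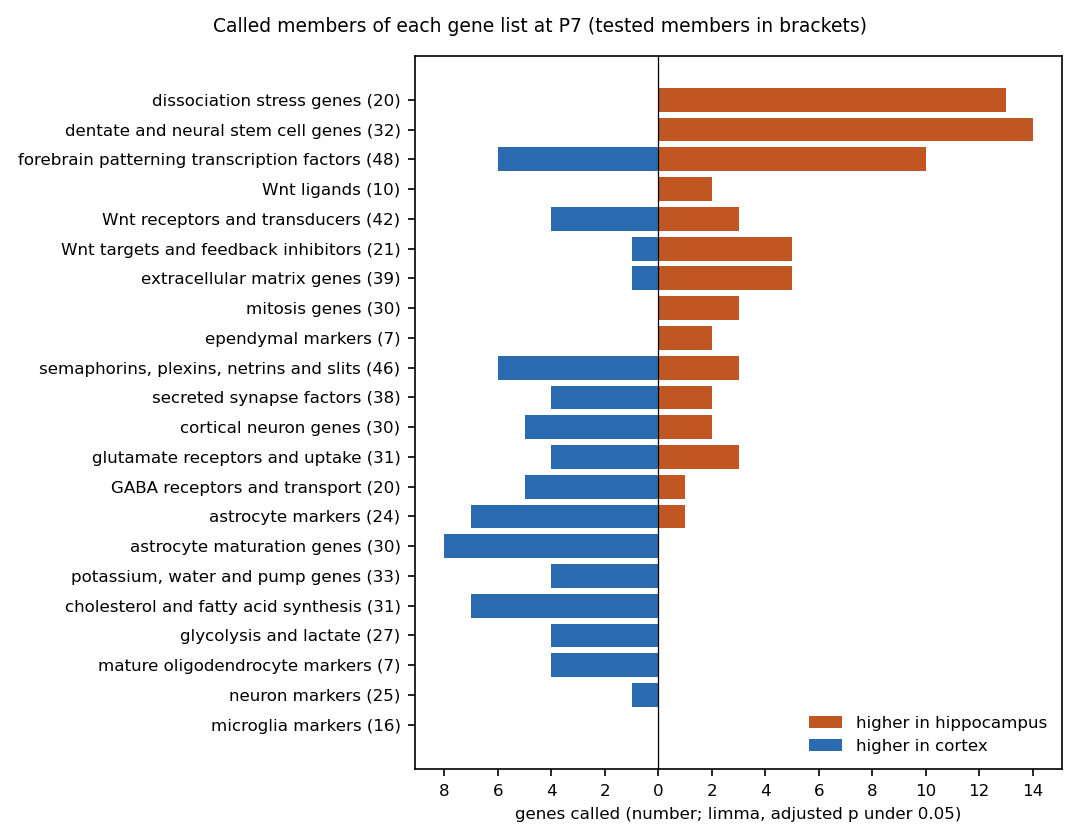
Number of called genes (horizontal) in 22 gene lists, those higher in hippocampus to the right and those higher in cortex to the left, with the number of tested members in brackets. Of all genes tested, 3.70% were called higher in hippocampus and 3.95% higher in cortex. Dissociation stress, stem cell, mitosis, Wnt ligand and ependymal genes were called to the right alone (13, 14, 3, 2 and 2). Maturation, lipid, glycolysis, mature oligodendrocyte, potassium and pump, and neuron genes were called to the left alone (8, 7, 4, 4, 4 and 1).

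The regional difference shifted with age. Of 989 genes called at P7 and also tested in the fit of all ages, 552 (55.8%) were called in the same direction at P1, where 25.7% of all 12880 genes were called in either direction. They made up 16.7% of the 3296 genes called at P1 among those tested in both fits, and 17 were called in the opposite direction. At P14, 401 (40.5%) were called in the same direction, 9.71% of the 4131 called, where 32.6% of all genes were called in either direction, and 69 in the opposite one. The change of the difference was called for 672 of 12880 genes (5.22%) from P1 to P7 (427 upward, meaning toward hippocampus, and 245 downward) and for 1196 (9.29%) from P7 to P14 (584 upward and 612 downward). Zbtb20 was called higher in hippocampus at all 3 ages, by 1.77 at P1, 1.47 at P7 and 1.13 at P14 on the log2 scale, as was Prox1 (1.15, 2.09 and 2.73). Gabbr2 was called higher in cortex at all 3 (-2.06, -1.78 and -1.66). No change between ages was called for any of these 3 genes. Wnt8b was at 131, 91.8 and 49.4 in the P1 hippocampus libraries and had no read in any P14 library of either region (change from P7 to P14 -5.02 ± 0.88, adjusted p = 0.00187, a value that depends on the pseudocount). That change was not called by edgeR (adjusted p = 0.9997) or DESeq2 (adjusted p = 0.0629).

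Among called genes with a mean level over the 19 libraries of at least the median, the largest upward changes from P1 to P7 were in Meg3, an imprinted RNA, Arpp21, Csmd3, Npas2 and Kcnma1, from differences of -4.65, -5.27, -3.85, -4.82 and -3.64 at P1 to -0.075, -1.22, -0.033, -1.27 and -0.33 at P7. Arpp21, Csmd3 and Kcnma1 are neuronal genes. Gabbr1 belonged to the same direction: its difference was -1.30 at P1 and -0.49 at P7 (change 0.82 ± 0.17, adjusted p = 0.00596). By the same rule, the largest downward changes were in Smyd1, Rasgef1b, Fam163a, Sema3a and Mex3b. Of the 12 libraries of these ages, leaving out any 1 of 3 ended the call for Meg3, any 1 of 4 for Rasgef1b, any 1 of 8 for Smyd1 and any 1 of 10 for Fzd10, and leaving out cortex P7 replicate 3 ended it for Sema3a. Sema3a turned from higher in hippocampus at P1 (1.19) to higher in cortex at P7 (-1.16). Fzd10 went from 0.02 to -3.29 (adjusted p = 0.0362) and Gria2 the other way, from -0.087 to 1.13 (0.00651).

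By the same rule, the largest upward changes from P7 to P14 were in B3gnt5, Vat1l, Slc4a10, Socs2 and Enpp2, whose differences went from 0.21, -0.16, -0.46, 0.95 and -0.46 to 4.61, 4.17, 3.42, 4.58 and 2.92. B3gnt5 had no read in 1 and Socs2 none in 2 of the 4 P14 cortex libraries, so the size of their change depends on the pseudocount. The largest downward changes by this rule were in Fosb, Adgrf5, Ryr3, Itga4 and Nr4a2. Ryr3 had no read in any P14 hippocampus library, and Adgrf5 and Itga4 none in P14 replicate 1, so the size of their change depends on the pseudocount. Nr4a2 went from 2.41 at P7 to -2.32 at P14 (adjusted p = 0.000707). Malat1 went from 1.65 to -0.21 (0.0077), and Fgfbp3, a carrier of fibroblast growth factors that was higher in cortex at P7 (503, 576 and 429 in cortex and 154, 130.4 and 182 in hippocampus), from -1.69 to 0.43 (0.000372). The 3 P14 hippocampus libraries held 2539583 to 4248087 reads, the shallowest of the 6 groups, and the count of 1196 became 1853, 1879 and 2253 without hippocampus P14 replicates 1, 2 and 3, and 750, 780 and 793 without hippocampus P7 replicate 2, cortex P7 replicate 3 and hippocampus P7 replicate 1.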

How the data were processed

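Each region has a table with 1 row per gene symbol and its 3 ages, in which the deposited unit is a normalized signal. Each column was divided by its smallest positive value, which gave whole reads for 100% of values (tolerance 0.01), so a deposited signal is a read count divided by 1 factor per library. The Nugen Trio kit was used on small amounts of total RNA, per the labels' protocols. The submitters' processing notes name build mm10, FastQC, MultiQC, STAR 2.5.0a and DESeq2 1.20.0 without roles. The annotation, the strand setting and the sorting of cells are not given in the sources used here, so overlapping genes cannot be told apart. Symbols that had become dates (27 in number) were restored from another table of the series with the same rows. Each region has its own table, so region and table cannot be told apart.

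Rn45s was dropped, the 19 P1, P7 and P14 columns of cortex and hippocampus were scaled together by median ratio, and log2(value + 1) was compared with limma 3.58.1 (trend; R 4.3.3) in the 6 P7 libraries, for genes with a mean of at least 10. A gene nearly absent from 1 region passed this filter through the other region and could be called only as higher there. The counts of list members include such genes. P-values were adjusted by Benjamini-Hochberg, and 0.05 was the threshold. Changes of the difference between ages used 1 fit of all 19 libraries, where the 12880 genes with a mean of at least 10 were tested. Fold changes on this scale understate those of low genes. The recovered read counts, as whole reads from the deposited signal, were tested with edgeR 4.0.16 (1062 genes called) and DESeq2 1.42.0 (1378 called) as alternatives. Replicate numbers follow the order of deposit and pair no samples. The fits were tested on simulated data. The genes named are members of the 39 lists, the 10 largest differences in each direction (mean at least 116, the median of tested genes, groups not overlapping), the 5 most abundant in each direction with at least a 2-fold difference, and the 5 largest changes in each direction between ages. Predicted genes, pseudogenes and mitochondrial genes were left out of the last 3. The members and lists were chosen with earlier results of these data known, as were the 9 genes whose change with age is given beyond this rule. Olfactory bulb and P28 values were not used here, and some list members are counted but not reported here by name.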

Additional observations from a re-analysis of the deposited data

Results flagged for a closer look

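The items here are those whose difference between hippocampus and cortex was itself different at another age, by the test of that change in the fit of all 19 libraries. Of 12880 genes tested, the change from P1 to P7 was called for 672 (5.22%) and that from P7 to P14 for 1196 (9.29%). Of 20 tested genes of the dissociation stress list, 13 had a called change from P7 to P14, against 9.29% of all genes. Among them were Fos (-3.97), Egr1 (-3.90) and Dusp1 (-3.79), all on the log2 scale.

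The changes from P1 to P7 were 4.57 for Meg3, 4.05 for Arpp21, 3.82 for Csmd3, 3.54 for Npas2, 3.31 for Kcnma1, 1.21 for Gria2 and 0.82 for Gabbr1. In the other direction they were -3.22 for Smyd1, -3.31 for Fzd10, -2.70 for Rasgef1b, -2.51 for Fam163a, -2.36 for Sema3a and -2.32 for Mex3b. Of these 13 genes, 8 kept their call in all alternatives, leaving out each of the 12 libraries included. Fzd10 lost its call without any 1 of 10 libraries, Smyd1 of 8, Rasgef1b of 4 and Meg3 of 3, and Sema3a without cortex P7 replicate 3.

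From P7 to P14 the changes were 4.40 for B3gnt5, 4.33 for Vat1l, 3.87 for Slc4a10, 3.63 for Socs2, 3.38 for Enpp2 and 2.11 for Fgfbp3. Downward they were -7.15 for Fosb, -5.54 for Adgrf5, -5.02 for Wnt8b, -4.89 for Ryr3, -4.88 for Itga4, -4.72 for Nr4a2 and -1.86 for Malat1. The sizes for Fosb, Wnt8b and Ryr3, which had no read in any P14 hippocampus library, depend on the pseudocount. Of the 16 genes followed for this change, 13 kept it in all alternatives and 15 without each of 13 libraries. Wnt8b was not called by edgeR (adjusted p = 0.9997) or DESeq2 (0.0629), Ryr3 was not called with a pseudocount of 8 (0.0519), and Socs2 lost it without cortex P7 replicate 1 or hippocampus P7 replicate 1.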

How the results depend on the processing

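At P7 the direction of all 153 followed genes held under each alternative run, as was likely for genes chosen by their call in these same libraries. The 2-fold requirement aside, 21 genes kept their call under all alternatives. The called count stayed within 1.5 times of 994 with TMM, quantile or P7-only scaling, edgeR or DESeq2, Rn45s kept, a pseudocount of 0.1 or 8, and a minimum mean of 100 or none. It was 1881 (305 higher in hippocampus, 1576 lower) with deposited values, 110 (68 and 42) without the trend, 2793 (1385 and 1408) with array weights, 342 (211 and 131) with a 2-fold requirement and 546 (193 higher) with all 19 libraries in the fit. Without the trend, 3 stress genes and 3 stem cell genes were called higher in hippocampus. Higher in cortex, 0 astrocyte markers, 0 lipid genes and 1 GABA gene were called in that run. Leaving out 1 library gave 120 to 1798 genes, 63 to 874 higher and 49 to 924 lower. Leaving out cortex replicate 2 and hippocampus replicate 3 together, an alternative chosen after seeing the data, gave 2494 (1117 and 1377).

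The change from P1 to P7 was called for 1198 genes with DESeq2 (716 up, 482 down) and 1605 (907 and 698) with the 4 groups alone in the fit, and for 453 to 584 on leaving out 1 library (293 to 398 up, 149 to 203 down). The change from P7 to P14 was called for 1814 with DESeq2 (926 up) and 778 with 4 groups alone (348 down). A minimum mean of 100 left 240 down. On leaving out 1 library it was 750 to 2253 (377 to 918 up, 370 to 1335 down). The causes were not tested. No paired analysis was possible because replicate numbers follow the order of deposit.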

Other observations

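Of all genes tested, 7.65% were called, against which the counts of the lists here stand. Of 20 Notch pathway genes, the target genes Hes1 (192, 256 and 129 in hippocampus and 93.1, 86.2 and 73.1 in cortex) and Hes5 were called higher in hippocampus, and Dner, a ligand of neurons and glia, was higher in cortex (1316, 1297 and 1489.5 in cortex and 696, 804 and 826 in hippocampus, log2 difference -0.82 ± 0.12). Of 17 genes of the FGF pathway, the receptor gene Fgfr1 (936, 902 and 906 in hippocampus and 726, 694 and 629 in cortex) and the feedback phosphatase gene Dusp6 (203, 203 and 202 in hippocampus and 115, 137 and 130.2 in cortex) were higher in hippocampus. Of 19 ephrins and Eph receptors, Epha4 was called, at 1035, 1172 and 1132 in hippocampus and 543, 577 and 661 in cortex, and it kept its call without each library, as did Dner. Fgfr1, Dusp6 and Hes1 each lost theirs without 5 of the 6 libraries, all but hippocampus replicate 3, and Hes5 without any 1 of the 6.

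Higher in cortex were the Hedgehog inhibitor gene Hhip, 1 of 12 Hedgehog genes, at 154, 146 and 164 in cortex and 111, 59.8 and 60.1 in hippocampus, and Ece1, the enzyme that activates endothelin and 1 of 5 endothelin genes, at 726, 618 and 561 in cortex and 462, 395 and 436 in hippocampus. The endothelin receptor gene Ednrb did not pass (-0.40 ± 0.12, adjusted p = 0.0799). The Hedgehog share was near the 7.65% of all genes tested that were called. Hhip lost its call without any 1 of 5 libraries and Ece1 without any 1 of 4. Of 26 imprinted genes, a share near that of all genes was called: Igf2r was higher in hippocampus (0.48) and Gnas higher in cortex (-0.75), the first losing its call without any 1 of the 6 libraries and the second without any 1 of 4. Among the most abundant genes with at least a 2-fold difference, Cpe, which processes neuropeptides, was at 24896, 29425 and 30942 in cortex and 14195, 11252 and 17704 in hippocampus, Ndrg2, an astrocyte gene, at 10509, 11828 and 10597 in cortex and 4686, 4399 and 7193 in hippocampus, and the protease inhibitor gene Serpine2 at 4314, 4770.3 and 4013 in cortex and 1902, 1729.5 and 2710.1 in hippocampus. Prex2, a regulator of Rac, was at 3452, 2828 and 3470.1 in hippocampus and 1480.2, 1786 and 1365 in cortex. The cation channel gene Trpm3 (-1.90), the adenylyl cyclase gene Adcy1 (-1.72), Tmem176a (-1.89) and Luzp2 (-1.03) were also higher in cortex. Nfia (0.27 ± 0.12, adjusted p = 0.189) and Nfix (0.48 ± 0.14, adjusted p = 0.0723), relatives of Nfib, did not pass.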
